A study of Canis lupus familiaris with 8 samples.

Results

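The constitutive proteasome genes are described here in peripheral blood mononuclear cells of 8 dogs, a preparation that holds mainly lymphocytes and monocytes. They were taken by symbol, as every gene whose name begins with PSMA, PSMB, PSMC, PSMD, PSME, PSMF or PSMG and a digit. The immunoproteasome genes PSMB8, PSMB9 and PSMB10 were left out. The rule found 47 of the 35048 rows in each count table. Of these, 45 are proteasome genes, and the other 2, PSMC3IP and PSME3IP1, are partner proteins that share the prefix. PSMC3IP acts in meiotic recombination, and PSME3IP1 binds the activator PSME3.

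The study compared 5 obese dogs with 3 normal dogs, to find which genes differ between them. The obese dogs were 1 of the breed Dachshunds (dog 1), 1 Chihuahua (dog 2), 2 Labrador retrievers (dogs 3 and 4) and 1 Welsh Corgi (dog 5), and all 3 normal dogs were Beagle. Breed and body condition therefore cannot be told apart in any comparison below, and the labels give no age, sex, diet or treatment for any dog. Each library is labelled as a separate dog. The libraries were 3′ tag libraries, which count a transcript near its poly(A) end, so that a level depends little on transcript length. Levels are CPM, counts scaled to a common library size and corrected for library composition, and library totals ran from 10264202 to 14910982 counts.

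The proteasome degrades proteins that carry a ubiquitin chain. Its 20S core is a barrel of alpha and beta rings, with the cutting sites inside on the beta subunits PSMB5, PSMB6 and PSMB7. A regulatory particle binds the ends of the barrel. Its base of PSMC ATPases unfolds the substrate, and its lid, built from PSMD subunits, removes the ubiquitin. Other caps can take its place: PSME1 and PSME2 together form the activator PA28, which interferon induces and which favours peptides for antigen presentation, PSME3 forms a nuclear relative of it, and PSME4 is the large nuclear activator PA200. PSMG proteins are chaperones that build the core and leave it. In blood mononuclear cells the proteasome supplies peptides to MHC class I and destroys inhibitors of inflammatory signalling and of the cell cycle.

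No proteasome gene passed the test between obese and normal dogs, and the smallest p-values were those of the activator genes PSME4, PSME1 and PSME2. These 3 genes were lower in every obese dog (5 of 5) than in the lowest normal dog, at 140, 65.2 and 46.4 CPM on average in obese dogs, with 289, 108 and 76.9 CPM in normal dogs. All tested subunits of the 20S core and all base ATPases had groups that overlapped. Of 46 members tested with edgeR's quasi-likelihood test, none had an adjusted p under 0.05, against 0.233% of the 20632 genes tested (0.0485% called higher and 0.184% called lower in the obese dogs). An unadjusted p under 0.05 was found for 5 members and for 15.7% of all genes. DESeq2 called 1 member (PSME4) and 5.43% of the 18989 genes to which it gave an adjusted p. With library quality weights, limma-voom called 7 members, or 15.2%, and 19.1% of all genes. The 5 members with an unadjusted p under 0.05 were also the 5 whose groups did not overlap: PSME4, PSME1, PSME2 and PSMD7 were lower and PSMG4 higher in the obese dogs. They are 10.9% of the members tested, and 10.9% of all genes had groups without overlap, so their number does not set the proteasome apart. The 4 lower ones are 8.7% of the members, beside 5.16% of all genes, and the 1 higher one is 2.17%, beside 5.75% of all genes.

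The fold changes of the members lay on both sides of 0. A log2 fold change, obese minus normal, was above 0 for 22 members and below 0 for 24, with a median of −0.03, beside a median of 0.09 and a share of 55.3% above 0 over all genes tested. With upper-quartile scaling, which moved the median of all genes to −0.03, the split was 16 above and 30 below 0. Only PSME4 and PSMC3IP had a fitted difference of more than 1 log2 unit (2 of 46 members, or 4.35%), against 20.5% of all genes. The 95% interval of the difference, not adjusted for the number of genes, lay wholly between −1 and 1 for 22 members (47.8%), where 19% of all genes had so narrow an interval. Such a gene's interval leaves room for differences short of 1 log2 unit in either direction. The members had a median level of 38.9 CPM, above the 8.98 CPM of all genes tested.

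**Figure D1:**
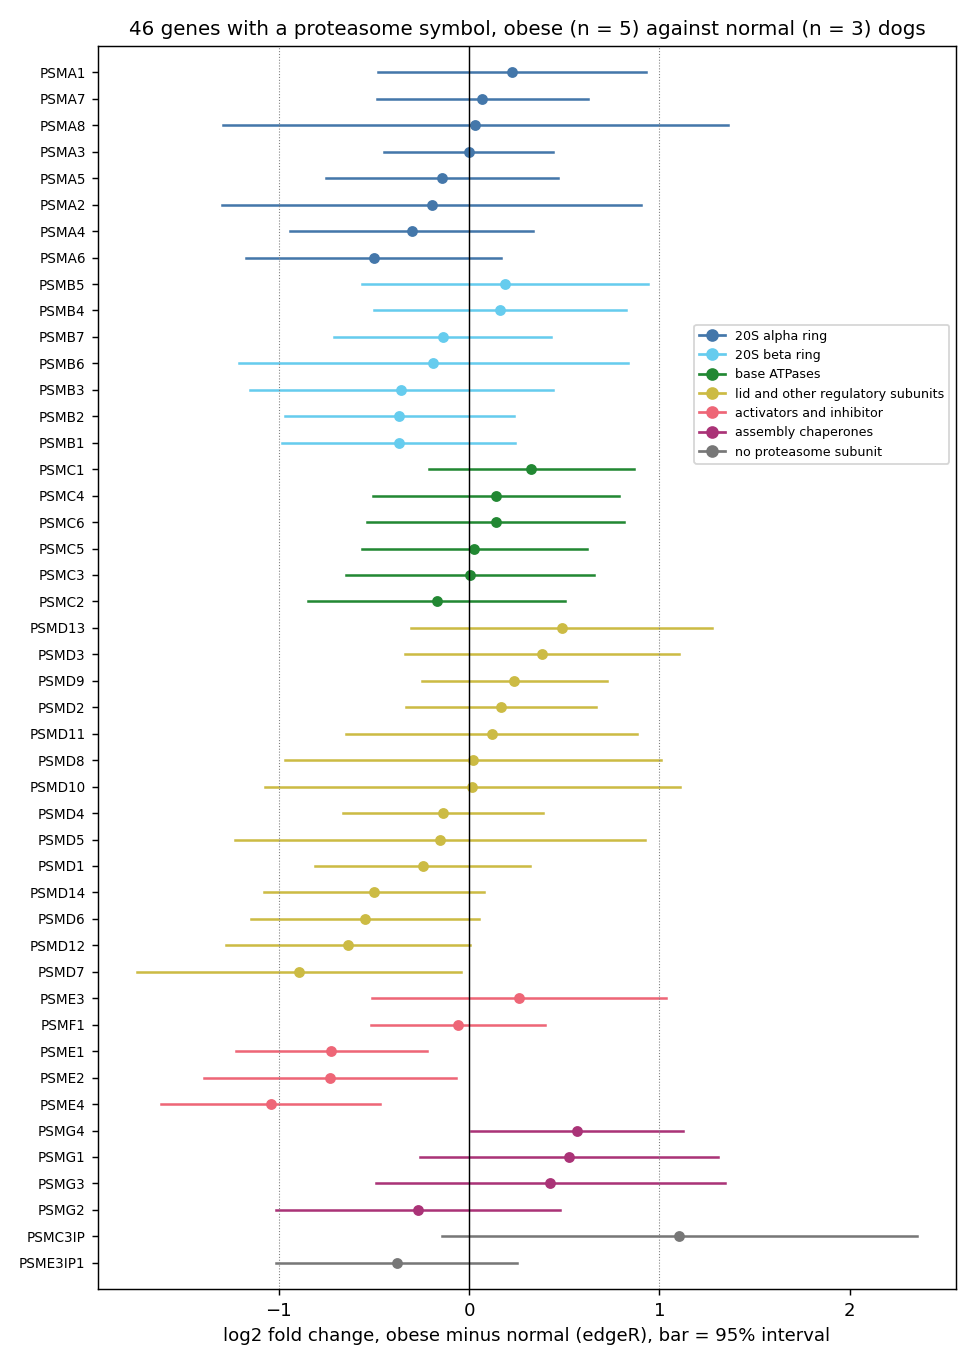
Log2 fold change, obese minus normal (x axis), of each of the 46 members tested (y axis), coloured by role; points are edgeR estimates and bars 95% intervals, with dotted lines at −1 and 1. The intervals of PSME4, PSME1, PSME2 and PSMD7 lie below 0 and that of PSMG4 just above it, and the other 41 cross 0.

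The alpha ring forms the gated end faces of the 20S core. All 8 PSMA genes passed the filter on low counts, and none passed the test, with 3 fold changes above 0 and 5 below, a median of −0.07 and adjusted p-values from 0.453 to 0.999 (edgeR). PSMA6 had 8.62, 15.0, 13.7, 11.5 and 13.1 CPM in obese dogs 1 to 5 and 19.2, 12.1 and 21.3 CPM in normal dogs 1 to 3. Normal dog 2 lay among the obese dogs, so the groups overlapped, and the log2 fold change of −0.50 had an interval from −1.17 to 0.17. PSMA4 had 85.2, 67.4, 81.1, 40.1 and 45.5 CPM in the obese dogs, against 80.0, 85.7 and 70.4 CPM in the normal ones. Obese dogs 2, 4 and 5 were below every normal dog, dog 2 by a small gap, and obese dogs 1 and 3 lay within the normal range. PSMA1 had 18.4, 23.8, 37.5, 33.7 and 35.8 CPM among obese dogs, next to 31.1, 17.7 and 27.7 CPM among normal dogs, with groups that overlapped throughout. PSMA3 had the smallest spread of the members tested, with 73.2 to 94.0 CPM over all 8 dogs and a difference of 0.00 log2 units (interval −0.44 to 0.44). It overlaps another gene with 10967 counts beside its own 9095. PSMA8, known as an alpha subunit of the testis, stood between 0.681 and 3.52 CPM.

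The beta ring carries the catalytic sites. Of 8 PSMB genes, 7 passed the filter. The exception was PSMB11, a subunit of the thymus proteasome, which had 4 counts in obese dog 3, 4 in normal dog 3 and 0 in the other libraries. None of the 7 passed the test, with a median log2 fold change of −0.19. PSMB1, a subunit without a cutting site, had 184, 151, 106, 95 and 94.0 CPM in obese and 188, 150 and 151 CPM in normal dogs. Obese dogs 1 and 2 lay within the normal range and obese dogs 3 to 5 below it. PSMB2 had 62.8, 99.2, 86.1, 65.9 and 50.9 CPM in the obese dogs, against 114, 72.1 and 96.4 CPM in the normal ones. PSMB3 had 35.2, 31.0, 66.2, 24.1 and 31.1 CPM among obese dogs, next to 58.1, 30.7 and 55.0 CPM among normal dogs, where the highest of all 8 values was that of obese dog 3. Its call was the 1 in the core that depended on the tool: its adjusted p was 0.666 with edgeR and 0.0423 with limma-voom, the lowest of its 16 alternatives, the highest of which was 0.946. That highest value came from an edgeR fit with the dog number as a block, although the numbers do not pair dogs. The next highest was 0.891, without normal dog 3 (edgeR).

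The 3 catalytic subunits did not share a pattern. PSMB5, of the chymotrypsin-like site, had 40.9, 27.9, 13.6, 29.2 and 28.3 CPM in obese and 30.0, 21.2 and 22.4 CPM in normal dogs (log2 fold change 0.19, interval −0.56 to 0.94). PSMB6, of the caspase-like site, had 44.8, 31.2, 8.51, 33.9 and 30.8 CPM in the obese dogs, against 47.4, 20.4 and 34.3 CPM in the normal ones. PSMB7, of the trypsin-like site, had 148, 142, 193, 116 and 93.6 CPM among obese dogs, next to 154, 145 and 159 CPM among normal dogs. Obese dog 3 had the lowest PSMB5 and PSMB6 and the highest PSMB7 of the 8 dogs, so the 3 levels did not follow each other in this library.

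Transcript levels within the core were far from equal, although the assembled particle holds its alpha and beta subunits in equal numbers. Over the 14 core genes other than PSMA8 and PSMB11, mean levels of the 3′ tags ran from 11.7 CPM for PSMA2 to 144 CPM for PSMB7. PSMB7 and PSMB1 were the 2 highest in all 8 dogs, and PSMA2 or PSMA6 was the lowest in all 8. The highest level was 7.19 times the lowest in obese dog 5 and 40.6 times in obese dog 3, the extremes of the 8 dogs. How completely the gene models cover each poly(A) end was not tested. PSMA2 and PSMA6 each overlap a long non-coding RNA in the reference annotation, with 1493 and 1575 counts over all libraries beside 1377 and 1570 for the subunits.

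None of the base ATPases PSMC1 to PSMC6, the motor that unfolds and threads the substrate, stood apart between the groups. All 6 intervals lay between −1 and 1, from a lowest bound of −0.84 to a highest of 0.87, and no other role had all its intervals there. Of the fold changes, 5 were above 0 and 1 below, with a median of 0.08 that became −0.03 with upper-quartile scaling. PSMC1 had 38.8, 34.3, 32.3, 46 and 51.7 CPM in obese and 31.0, 31.0 and 35.3 CPM in normal dogs, and the adjusted p was 0.55 (edgeR). The values of obese dogs 2 and 3 lay among the normal ones. PSMC2 had 18.3 to 47.5 CPM in the obese dogs, against 31.3 to 42.1 CPM in the normal ones. PSMC4 had 21.9 to 39.1 against 17.8 to 28.5 CPM, and its sign, 0.14 as reported, turned to −0.071 without obese dog 3 and to −0.064 without normal dog 2. PSMC3, PSMC5 and PSMC6 had differences of 0.01, 0.03 and 0.14 log2 units. The 3164 counts of PSMC6 stood beside 3157 of a long non-coding RNA that overlaps it, and the 4132 of PSMC1 beside 4209 of the overlapping gene NRDE2, so reads of these pairs may be shared.

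The PSMD genes, of the lid and the rest of the regulatory particle, went both ways. Of 14 members 7 had a fold change above 0 and 7 below, the median was −0.06, and none passed. PSMD7, which pairs with the deubiquitinase PSMD14 in the lid, had 71.0, 45.5, 63.6, 23.0 and 23.9 CPM among obese dogs, next to 89.9, 72.4 and 90.3 CPM among normal dogs. The groups were separate by a narrow gap, with obese dog 1 at 71.0 and normal dog 2 at 72.4 CPM, and obese dogs 4 and 5 were far below the rest. They overlapped when every gene with at least 1 count was kept for scaling. The log2 fold change was −0.89 (standard error 0.384, interval −1.74 to −0.04, adjusted p = 0.302, edgeR). PSMD12, a lid subunit, had 23.7, 37.4, 28.5, 52.1 and 38.7 CPM in obese and 61.9, 43.5 and 63.0 CPM in normal dogs. PSMD6, also of the lid, had 27.2, 44.6, 61.7, 37.3 and 43.9 against 58.4, 67.3 and 62.6 CPM. In both genes a single obese dog reached the normal range, dog 4 for PSMD12 and dog 3 for PSMD6. PSMD14 itself, which cuts the ubiquitin chain from the substrate, had 45.8 to 90.2 CPM in the obese dogs, against 83.2 to 106 CPM in the normal ones, with a log2 fold change of −0.50.

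Other lid subunits had values on the opposite side. PSMD13 had 157, 116, 50.9, 174 and 123 CPM among obese dogs, next to 104, 83.0 and 79.3 CPM among normal dogs, and obese dog 3 was the 1 obese dog below the normal dogs. Its log2 fold change was 0.49 (interval −0.30 to 1.28), and that of PSMD3 was 0.38 (interval −0.34 to 1.10). The large base subunits PSMD1 and PSMD2 had differences of −0.24 and 0.17, and the ubiquitin receptor PSMD4 had −0.14. PSMD4 overlaps a long non-coding RNA with 4261 counts beside its own 3612 and a log2 fold change of −0.15. PSMD8 had nearly equal means, 40.8 CPM in obese and 40.2 CPM in normal dogs, with a spread of 13.5 to 65.2 CPM among the obese and 36.9 to 42.1 CPM among the normal dogs. PSMD5, PSMD9 and PSMD10, which help to assemble the base, had differences of −0.15, 0.24 and 0.02.

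The activators were the role with the lowest median, −0.72 over 5 genes. Of these, 3 had groups that did not overlap, all lower in the obese dogs, and none passed among all genes. Over all genes tested 10.9% had groups without overlap, and 5.16% had the obese dogs lower. PSME4 had 121, 170, 172, 111 and 127 CPM in the obese dogs, against 223, 383 and 261 CPM in the normal ones. Every obese dog was below every normal dog, and the normal mean was 2.06 times the obese mean. The log2 fold change was −1.04 (standard error 0.259, interval −1.62 to −0.47, adjusted p = 0.122, edgeR). It passed the threshold with DESeq2 (adjusted p = 0.0204), with limma-voom (0.00688) and without obese dog 3 (0.0245), and over all 16 alternatives its adjusted p ran from 0.00688 to 0.546. The upper end came from the edgeR fit with the dog number as a block, although the numbers do not pair dogs. The next highest was 0.421, without normal dog 2 (edgeR). Without obese dog 3, PSME4 was the 1 member called (2.17% of 46), in a fit that called 8.28% of all genes. In the reference annotation PSME4 overlaps an uncharacterised gene that had 0 counts in all libraries.

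PSME1 had 65.4, 75.9, 67.7, 58.4 and 58.6 CPM among obese dogs, next to 80.3, 133 and 110 CPM among normal dogs. The gap was small, between 75.9 CPM in obese dog 2 and 80.3 CPM in normal dog 1. Its log2 fold change was −0.72 (interval −1.23 to −0.22, adjusted p = 0.191, edgeR). PSME1 overlaps EMC9, which had 1366 counts beside 8439 and a log2 fold change of −0.10. PSME2 had 56.7, 45.3, 67.5, 34.3 and 28 CPM in obese and 74.5, 86.2 and 69.9 CPM in normal dogs, with obese dog 3 at 67.5 just under normal dog 3 at 69.9 CPM. Its log2 fold change was −0.73 (interval −1.39 to −0.07, adjusted p = 0.283, edgeR), and with DESeq2 size factors its groups overlapped. The ratio of the 2 subunits of PA28 overlapped between the groups: PSME1 had 1.00 to 2.09 counts for each count of PSME2 in obese dogs and 1.08 to 1.57 in normal dogs. Interferon induces both genes, and ISG15, a gene of the interferon response chosen here after its values were seen, had 1.57 to 6.58 CPM among the obese, and normal dogs 1, 2 and 3 had 3.16, 1578 and 375 CPM. PSME1, PSME2 and PSME4 were each highest in normal dog 2. The part of interferon in these values was not tested.

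The other genes of this role did not stand apart. PSME3, the nuclear relative of PA28, had 22.8, 16.3, 17.7, 19.2 and 12.6 CPM in the obese dogs, against 21.2, 8.19 and 14.8 CPM in the normal ones. Normal dog 2, the highest of all dogs for the other activators, was the lowest for PSME3, and the log2 fold change was 0.26 (interval −0.51 to 1.03). Without normal dog 2 the fold changes of all 5 genes of the role were below 0, with a median of −0.57. PSMF1, a protein that binds and inhibits the core in the test tube, had 69.8 to 102 CPM among obese dogs, next to 89.3 to 96.7 CPM among normal dogs. Its difference was −0.06 log2 units (interval −0.51 to 0.40).

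**Figure D2:**
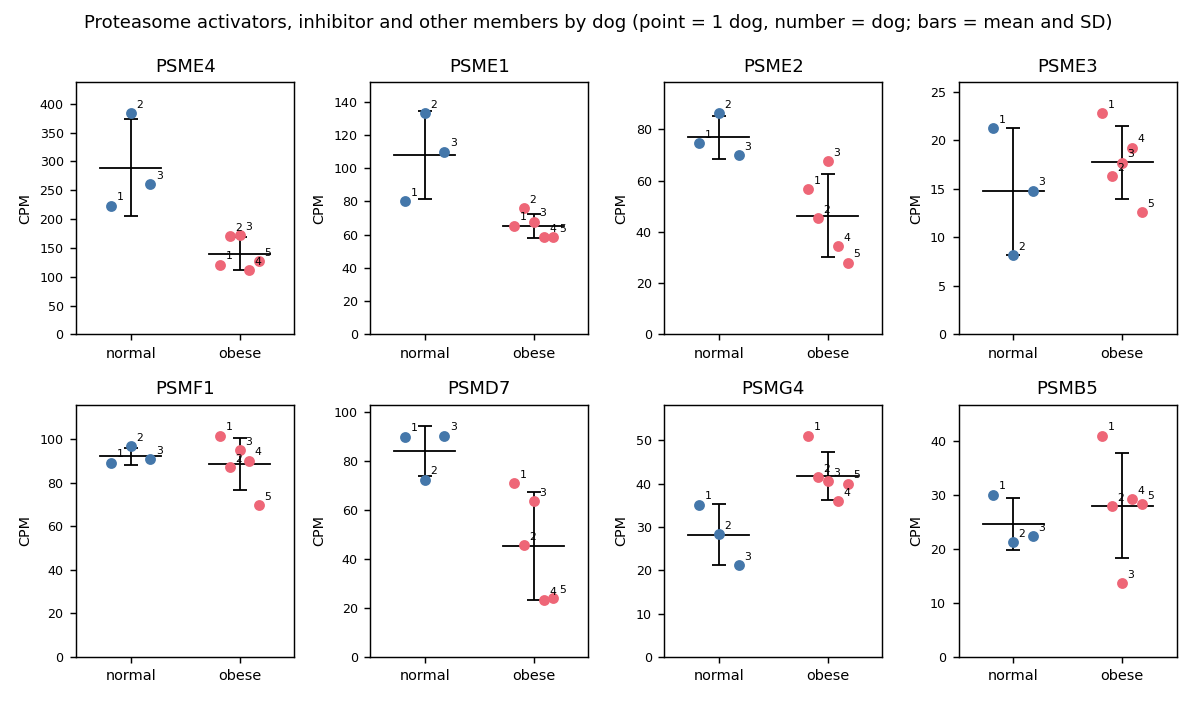
CPM (y axis, from 0) of the activators PSME4, PSME1, PSME2 and PSME3, the inhibitor PSMF1, and PSMD7, PSMG4 and PSMB5, in 3 normal and 5 obese dogs; each point is a dog with its number, and lines and bars are the mean and SD. The obese dogs lie below all normal dogs for PSME4, PSME1, PSME2 and PSMD7 and above them for PSMG4, and the groups overlap for the other 3 genes.

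The assembly chaperones had the highest median of the roles, 0.48 over 4 genes, with 3 fold changes above 0 and none past the test. PSMG4 had 51.0, 41.4, 40.6, 35.9 and 39.9 CPM in obese and 35.2, 28.3 and 21.1 CPM in normal dogs. The groups were separated by 35.9 CPM in obese dog 4 and 35.2 CPM in normal dog 1, and they overlapped with DESeq2 size factors, with upper-quartile factors and on plain library totals. The log2 fold change was 0.57 (interval 0.01 to 1.13, adjusted p = 0.312, edgeR). PSMG4 overlaps a long non-coding RNA with 768 counts beside 3851 and a log2 fold change of 0.87. Its partner PSMG3 had 6.92, 4.63, 3.97, 3.01 and 6.77 against 3.73, 3.98 and 3.57 CPM. PSMG1, which begins the alpha ring together with PSMG2, had 19.4, 26.2, 25.6, 18.5 and 29.3 CPM in the obese dogs, against 19.9, 8.08 and 21.6 CPM in the normal ones. PSMG2 had a fold change of the other sign, −0.27 (interval −1.01 to 0.48), where PSMG1 had 0.52.

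The 2 genes that share the prefix without being subunits had groups that overlapped. PSMC3IP had 3.97, 6.88, 7.60, 8.48 and 10.7 CPM among obese dogs, next to 4.29, 0.885 and 5.23 CPM among normal dogs, a log2 fold change of 1.10 with an interval from −0.14 to 2.35. PSME3IP1 had 24.3 to 44.7 CPM in obese and 35.7 to 63.9 CPM in normal dogs. In the reference annotation PSMC3IP overlaps MLX, with 1041 counts beside 692, and PSME3IP1 overlaps RSPRY1, with 5840 beside 4077.

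Levels were also summed over each part of the particle. The activators and the inhibitor, all 5 genes, had 368, 395, 419, 313 and 296 CPM in the obese dogs, against 488, 708 and 546 CPM in the normal ones. The groups did not overlap, with or without scaling for composition. PSME4, PSME1 and PSME2, whose groups were already separate one by one, make up most of this sum. The 20S core had 819 ± 102 CPM (SD, n = 5) in the obese and 912 ± 145 CPM (SD, n = 3) in the normal dogs. The base ATPases had 178 ± 17.4 and 168 ± 29.3 CPM, and the PSMD genes 650 ± 67.8 and 711 ± 82.3 CPM. In these 3 parts the groups overlapped. The 4 assembly chaperones had 81.7 to 98.2 against 57.9 to 79.8 CPM, separate with scaling for composition and overlapping on plain library totals, with 60.9 to 113 against 50.2 to 86.5 CPM. The 45 proteasome genes together overlapped, at 1884 to 2288 CPM among obese dogs, next to 2285 to 2594 CPM among normal dogs. With PSMC3IP and PSME3IP1 added, the sums were 1928 to 2319 against 2350 to 2638 CPM, without overlap, and on plain library totals they overlapped. Without PSME4, PSME1 and PSME2 the sums of the other 44 were 1714 to 2034 and 1747 to 2260 CPM. Between 0.155 and 0.286% of a library's counts came from the 47 genes.

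**Figure D3:**
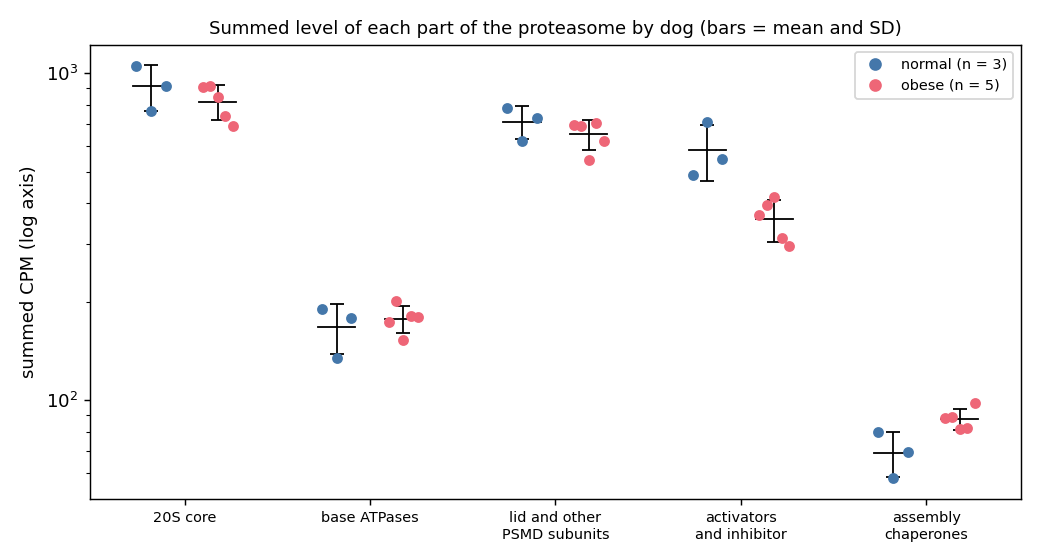
Summed CPM (log y axis) of the genes of each part of the proteasome (x axis) in 3 normal and 5 obese dogs; points are dogs, and lines and bars the mean and SD. The groups are separate for the activators and inhibitor, with 296 to 419 CPM in obese and 488 to 708 CPM in normal dogs, and narrowly for the assembly chaperones, with 81.7 to 98.2 against 57.9 to 79.8 CPM, a gap that is lost on plain library totals.

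Single dogs differed from the rest in many members at once. Normal dog 2 had the lowest value of all 8 dogs for 14 of the 46 members and the highest for 7, and obese dog 3 the lowest for 11 and the highest for 6. Normal dog 1 had the lowest value for none. The same counts were not made over all genes, so they do not set the members apart from other genes. Without normal dog 2 the median of the members was −0.19 and 12 fold changes were above 0 and 34 below. In that fit 10 members had groups without overlap (21.7%), beside 15.7% of all genes. Without normal dog 1 there were 8 (17.4%, beside 22.1% of all genes), and without obese dog 3 there were 6 (13%, beside 25% of all genes).

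**Figure D4:**
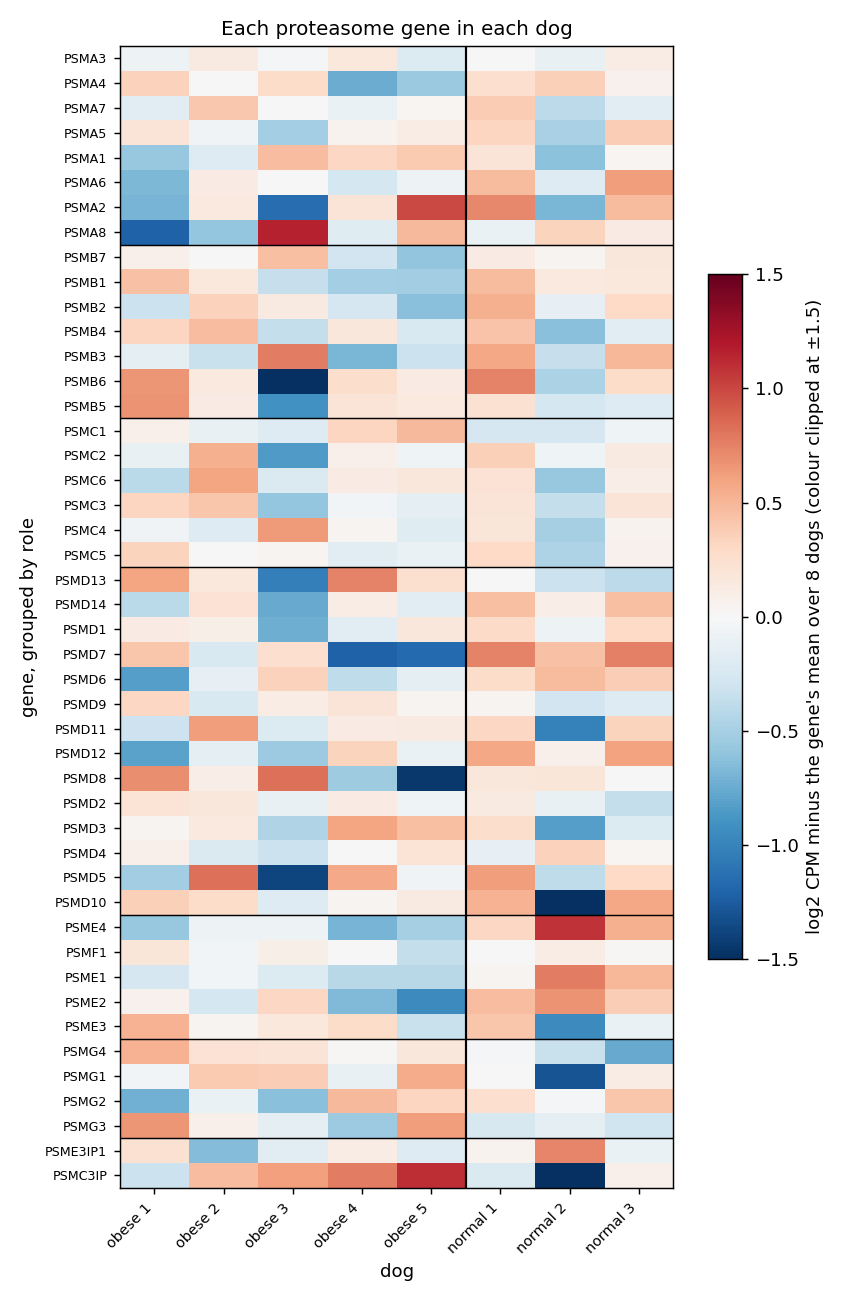
Log2 CPM of each of the 46 members tested (rows, grouped by role) in each dog (columns) minus the gene's mean over the 8 dogs, with colour clipped at −1.5 and 1.5 and a line between the 5 obese and 3 normal dogs. PSME4, PSME1 and PSME2 are blue or pale in the obese and pale to red in the normal dogs, apart from PSME2, which is also pale red in obese dogs 1 and 3, and normal dog 2 is blue across much of the core, the base and PSMD3, PSMD10 and PSMD11.

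Summed levels of the markers of several blood cell types were separate between the groups in the same libraries. Markers of T cells, B cells, NK cells and monocytes, the cells of this preparation, were measured in every dog. In bulk samples fewer cells of a type and less RNA per cell cannot be told apart. The 10 T cell markers all had fold changes above 0, with summed levels of 540 to 1722 CPM in the obese dogs, against 354 to 464 CPM in the normal ones. Of 9 plasma cell markers tested 8 were below 0, with sums of 167 to 278 against 356 to 1307 CPM. All 6 proliferation markers were below 0 (49.7 to 203 against 208 to 369 CPM), and all 6 platelet markers tested were above 0 (67.6 to 1241 against 8.19 to 32.0 CPM). All 6 erythroid markers tested were above 0 as well, with 40.8 to 1182 against 28.1 to 32.5 CPM. An adjusted p under 0.05 (edgeR) was found for 1 plasma cell marker and 1 proliferation marker, and for none of the other lists, beside 0.233% of all genes. The sums of the monocyte markers were 1556, 815, 5723, 1086 and 1057 CPM in the obese dogs, against 3182, 7357 and 3853 CPM in the normal ones. Those of the neutrophil markers were 460, 117, 2511, 157 and 119 against 691, 1990 and 1874 CPM. Both overlapped through obese dog 3 alone, and the other obese dogs were below every normal dog. Single markers went both ways, with 5 monocyte markers above 0 and 4 below, and 5 neutrophil markers above and 3 below. The B cell sums (58.2 to 271 and 54.2 to 109 CPM) and the NK cell sums (42.1 to 110 and 34.4 to 55.4 CPM) overlapped too. Markers with 0 counts in at least 1 library were MS4A1, SDC1, DERL3, MZB1, CXCR2, NCR1, GP9, HBM, HBE1, SLC4A1, AHSP and CDK1. The part of cell composition in the values of PSME4, PSME1, PSME2, PSMD7 and PSMG4 was not tested.

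Of 40 further genes of the proteasome pathway, 38 were found in the tables and all 38 were tested. None passed with edgeR. With DESeq2 3 passed (ZFAND5, PITHD1 and PSMB8), beside 5.43% of all genes given an adjusted p. With limma-voom 6 passed, the same 3 with AKIRIN2, UBA6 and UBE3C, beside 19.1% of all genes. A fold change was above 0 for 16 and below 0 for 22, and the median was −0.03. Groups did not overlap for 5 of the 38 (13.2%, beside 10.9% of all genes), 3 lower and 2 higher in the obese dogs. Among the proteins that bind, modify or complete the proteasome, PSMB8, the interferon-induced substitute for PSMB5, had 51.3, 65.7, 40.3, 56.3 and 45.7 CPM among obese dogs, next to 83.1, 97.7 and 90.4 CPM among normal dogs. Every obese dog was lower than every normal dog, with a log2 fold change of −0.80 (interval −1.30 to −0.31, adjusted p = 0.154, edgeR). Within a dog PSMB8 had 1.25 to 2.96 counts for each count of PSMB5 in obese dogs and 2.77 to 4.60 in normal dogs, a ratio that does not depend on scaling and that overlapped between the groups. The groups overlapped for the other substitutes: PSMB9 had 18.6 to 75.9 CPM in obese and 20.7, 143 and 20.8 CPM in normal dogs, and PSMB10 had 26.9 to 43.0 against 31.4 to 43.4 CPM.

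ZFAND5, a zinc finger protein that stimulates the proteasome, had 88.8, 111, 310, 99.9 and 88.5 CPM in the obese dogs, against 342, 444 and 405 CPM in the normal ones. The groups did not overlap, and obese dog 3 was close to the normal dogs, where the other obese dogs were not. Its log2 fold change was −1.51 (adjusted p = 0.154, edgeR). Leaving out obese dog 3 brought it to −2.06 and past the threshold (adjusted p = 0.00124, edgeR), in a fit that called 8.28% of all genes. AKIRIN2 was the other partner gene called in that fit. With all dogs its groups overlapped through obese dog 3 at 174 CPM. The other obese dogs had 42.0 to 55.4 CPM and the normal dogs 142 to 284 CPM (log2 fold change −1.63, adjusted p = 0.179, edgeR). Over the 16 alternatives for ZFAND5 the adjusted p ran from 0.000915 to 0.512. The upper end came from the edgeR fit with the dog number as a block, and the next highest was 0.510, without normal dog 3 (edgeR). PITHD1, a protein with a PITH domain, had 13.7, 28.4, 39.4, 24.4 and 22.3 CPM among obese dogs, next to 13.1, 7.86 and 8.74 CPM among normal dogs, with obese dog 1 just above normal dog 1. Its log2 fold change was 1.37 (interval 0.54 to 2.20, adjusted p = 0.148, edgeR). UFD1, a cofactor of the segregase VCP, had 16.3 to 27.9 CPM in obese and 28.1 to 31.4 CPM in normal dogs. The gap was narrow, and the log2 fold change of UFD1 was −0.51 (interval −1.07 to 0.06, adjusted p = 0.373, edgeR). VCP itself, which pulls ubiquitinated proteins apart before they reach the proteasome, had 153, 157, 197, 150 and 139 CPM in the obese dogs, against 256, 192 and 208 CPM in the normal ones, and only obese dog 3 reached the normal range.

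Of 4 genes that encode or activate ubiquitin, 3 had fold changes above 0 and 1 below, with a median of 0.53. UBB, a polyubiquitin gene, had 285, 313, 399, 286 and 236 CPM among obese dogs, next to 220, 209 and 195 CPM among normal dogs, so the groups did not overlap. Its log2 fold change was 0.55 (interval 0.03 to 1.07, adjusted p = 0.301, edgeR). RPS27A, which encodes ubiquitin fused to a ribosomal protein, had overlapping groups, with 629 to 1736 against 539 to 927 CPM. NFE2L1, the factor that drives proteasome genes when degradation fails, had 11.6 ± 3.98 CPM (SD, n = 5) in the obese and 8.78 ± 1.47 CPM (SD, n = 3) in the normal dogs. DDI2, the protease that activates NFE2L1, had 33.7 to 144 CPM in the obese dogs, against 45.3 to 66.7 CPM in the normal ones. FOXO4, a forkhead transcription factor, had 5.90 to 15.3 against 14.3 to 19.8 CPM. None of the 9 genes of this control class had groups without overlap.

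**Figure D5:**
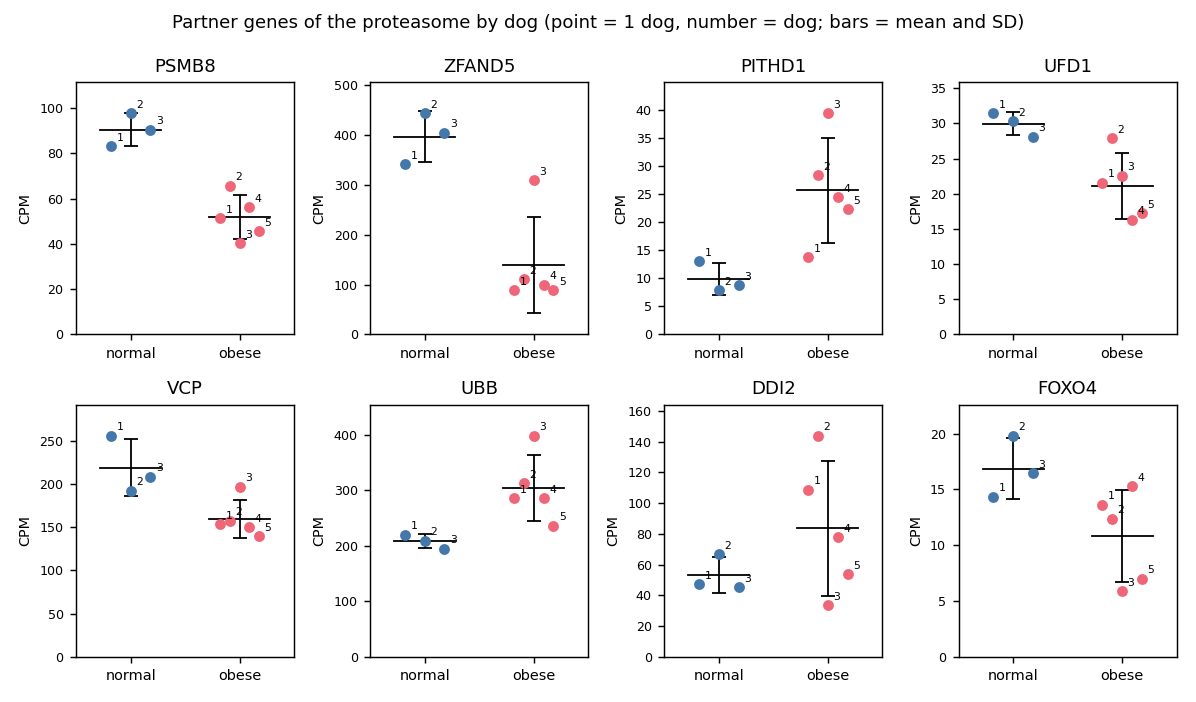
CPM (y axis, from 0) of 8 further genes of the pathway in 3 normal and 5 obese dogs; each point is a dog with its number, and lines and bars are the mean and SD. The obese dogs lie below all normal dogs for PSMB8, ZFAND5 and UFD1 and above them for PITHD1 and UBB, while VCP, DDI2 and FOXO4 overlap.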

How the data were processed

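RNA of mononuclear cells from 8 dogs was sequenced as 3′ tag libraries (Lexogen QuantSeq, per the labels' protocols). The authors deposited whole-number counts per gene symbol for each dog, not normalized. Bowtie2 and bedtools are named, per the submitters' processing notes, without a version or role. Genome build, gene models and strand use: not given in the sources used here. Some symbols recurred (411 rows), but none of a member. All 47 symbols were found in a RefSeq gene table of UU_Cfam_GSD_1.0, which was used for overlaps only: 17 members overlap another gene there. Library pairs differed by more than sampling noise, with a chi-square per degree of freedom of at least 35.9.

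The main test used R 4.3.3 and edgeR 4.0.16 on all 8 dogs without covariates: filterByExpr with the 2 groups left 20632 genes, libraries were scaled by TMM, and the robust quasi-likelihood test compared the groups. Adjustment followed Benjamini and Hochberg across these genes, with a threshold of 0.05. Standard errors are the absolute log2 fold change over the square root of F, and 95% intervals use the fit's degrees of freedom. The code was tested on simulated data. Alternatives used DESeq2 1.42.0, limma 3.58.1, other scalings and filters, no robust estimation, and fits without each dog. A further one took the dog number as a block, which leaves obese dogs whose number no normal dog has out of the group difference. The members and lists were chosen with earlier results of these data known. Named members are those whose groups do not overlap and the 3 with the smallest p in each role, and named partners those without overlap and the 2 with the smallest p in each class. Other members named, PSMB9, PSMB10, AKIRIN2, UBA6, UBE3C, NFE2L1 and ISG15 were chosen after their values were seen. Some listed partner genes are not reported here. CPM on plain totals, counts of groups without overlap and summed CPM were added after the data were seen.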

Additional observations from a re-analysis of the deposited data

Results flagged for a closer look

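In 67 series of 5 obese values, the gap of 1 dog to the nearest other dog was divided by the range of the 5 values. For 3 series this ratio exceeded Dixon's 95% critical value, where chance flags about 1 in 20. PSMB3 was 66.2 CPM in obese dog 3 and 24.1 to 35.2 CPM in the other obese dogs. PSMC4 was 39.1 CPM in obese dog 3 and 21.9 to 25.8 CPM in the others. ZFAND5 was 310 CPM in obese dog 3 and 88.5 to 111 CPM in the others.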

How the results depend on the processing

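The count of genes past the threshold was 48 over all genes (0.233%). It was 1031 with DESeq2 (5.43% of 18989 genes with an adjusted p) and 3942 with limma-voom (19.1%). With the dog number as a block (the replicate block) it was 0, where 1634 genes had an unadjusted p under 0.05 (edgeR). Obese dogs 4 and 5 have no normal dog of their number, so they add nothing to the group difference in that fit. In the fits without 1 dog each the count was 2 to 1684, the 1684 (8.28%) being without obese dog 3. The count of members past the threshold was 0 as reported, 1 with DESeq2 and 7 with limma-voom (PSME4, PSME1, PSME2, PSMD7, PSMG4, PSMB3 and PSMD6). It was 0 with the replicate block, and 0 to 1 without 1 dog each. The count of partner genes, 0 as reported, was 3 with DESeq2, 6 with limma-voom, 0 with the block, and 0 to 2 without 1 dog each. The median of the members was −0.19 to 0.074 without 1 dog each, with the lowest value without normal dog 2. Members without overlap numbered 3 with DESeq2 size factors (PSMD7, PSME1 and PSME4), or 6.52%, beside 10.9% of all genes. They numbered 5 to 10 without 1 dog each, or 10.9 to 21.7%, where the share of all genes was 12.7 to 25%. Of 464 values of 29 named genes under these settings, 444 kept their sign and side of the threshold, 16 came to pass it and 4 changed sign: PSMA1 was −0.0078 without normal dog 2 (range without 1 dog each −0.0078 to 0.41), and PSMC4 was −0.054 with limma-voom, −0.064 without normal dog 2 and −0.071 without obese dog 3 (range without 1 dog each −0.071 to 0.29). The causes were not tested. The dog numbers do not pair dogs: the groups share no animal or breed, the deviations of dogs 1, 2 and 3 of each group correlated at −0.02, −0.23 and 0.01, and no dog correlated best with its own number. PSMB11, with counts in 2 libraries only, did not pass the filter on low counts.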
